A study of Danio rerio with 4 samples.

Results

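The laminin, nidogen and integrin genes of cells sorted for a pdgfrb-driven EGFP from adult zebrafish brain are described here. They were taken by name, as every Ensembl gene ID of the count table whose symbol begins as that of a laminin chain, nidogen 1 or 2, or an integrin alpha or beta chain. This gave 55 of 32105 IDs, of which 14 are laminin chains, 4 nidogens, 22 integrin alpha chains and 12 integrin beta chains. The remaining 3, ITGB1BP1, ITGBL1 and itgb3bp, carry an integrin-like symbol without being a chain of the receptor. Symbols are printed as the name table gives them, many in human style, and 12 of the 55 IDs share 5 symbols, so copies are told apart by their ID.

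The only group is EGFP-positive cells of adult fish of wildtype genotype that carry a pdgfrb EGFP reporter, in 4 libraries of 6 pooled brains each. The brains were dissociated with Liberase, the cells were sorted into a lysis reagent, and their RNA was amplified before library preparation. The reporter marks whatever cells drive pdgfrb, and no EGFP-negative sample is analysed here. The samples are titled pericyte while their cell type tag reads muLEC, and the design text speaks of triplicates although 4 samples are listed. All 4 were used, as B1 to B4 after their columns.

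Laminins are cross-shaped heterotrimers of an alpha, a beta and a gamma chain that polymerise into the basement membrane, the sheet on which endothelial cells, pericytes and glial endfeet of brain vessels rest. Nidogens link the laminin network to the collagen IV network. Integrins are receptors of an alpha and a beta chain, and the alpha chain largely sets whether a receptor binds laminin, collagen, or proteins with an RGD motif such as fibronectin and vitronectin. Pericytes and astrocytes are both known sources of laminin in the mammalian brain.

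Library totals ran from 33270774 to 40441253 counts. At these depths 3 counts correspond to 0.0751 to 0.0879 CPM (counts set to a shared library size), and this limit speaks of counting error only. B1 stood apart from the other libraries. It was at least 2-fold above the next library in 15.1% of all tested genes, against 1.51%, 1.03% and 0.851% for B2, B3 and B4, and the common coefficient of variation was 0.538 with B1 and 0.331 without it. Pericyte markers were present, with 8 of 11 tested IDs above the reference level defined below, but foxf2a had 0.0586 CPM in B1 and no count elsewhere. Against the 36.8% of all tested genes that lay above that level, markers of other cells did so in 9 of 11 tested radial glia, 9 of 11 fibroblast, 7 of 10 oligodendrocyte, 5 of 11 neuron, 4 of 12 microglia, 3 of 12 endothelial and 4 of 8 smooth muscle IDs. The lymphatic endothelium and muLEC list, of the cells the tag names, had 4 of 7 above it, the erythrocyte list 1 of 4 and the list of neutrophils, lymphocytes and thrombocytes 0 of 4. These counts do not give the size of the reads. The radial glia list summed to 23448 to 44286 CPM over the libraries and the pericyte list to 823 to 2131 CPM. The part of each cell type in the member reads was not tested. In such bulk samples fewer cells of a type and less RNA per cell cannot be told apart.

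Each gene's level was tested against the median tested gene, the reference level, at 12.6 CPM. Of the 55 IDs, 43 reached 1 CPM in at least 2 libraries and were tested. By edgeR's quasi-likelihood test with Benjamini-Hochberg adjustment at 0.05, 20 of the 43 lay above the reference level, against 36.8% of all tested genes. Another 14 lay below it, against 33.2% of all tested genes, and 9 on neither side. The share above was 46.5% of the tested members, and 8 of the 15 tested laminin and nidogen IDs were among them, as were 10 of 25 tested integrin chains. The median tested member lay 0.45 log2 units above the reference level. Gene lengths were not available, and a long transcript gives more reads than a short one at the same number of molecules. The calls therefore speak of reads, and levels of different genes are not ranked.

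Of the laminin alpha chains, lama4 (ENSDARG00000020785) had 152, 167, 111 and 95.3 CPM in B1, B2, B3 and B4. The chain it encodes is that of vascular and other mesenchymal basement membranes in mammals, and its 4 libraries stayed within 1.75-fold of each other. It lay 3.38 ± 0.23 (SE) log2 units above the reference level by edgeR (adjusted p = 3.1e-06). LAMA1 (ENSDARG00000102277), which encodes the alpha chain of early embryonic and, in the mouse brain, meningeal and glial basement membranes, had 19.9, 15.8, 24.9 and 27.9 CPM. All 4 libraries were above the reference level, and the fitted difference was 0.81 ± 0.22 log2 units (edgeR adjusted p = 0.011). That call was lost without B3 (0.66, adjusted p = 0.0998) or without B4 (0.59, adjusted p = 0.124), and over the 8 alternatives its adjusted p ran from 1.22e-06 to 0.124.

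The other laminin alpha chains were at fewer reads. The gene lama2 (ENSDARG00000099390), whose chain is that of muscle and, in the mouse, astrocyte endfoot basement membranes, had 12.3, 8.53, 2.37 and 9.38 CPM and did not pass (log2 -0.63, edgeR adjusted p = 0.2). LAMA5 (ENSDARG00000058543), which encodes a chain of mature endothelial and epithelial basement membranes, had 9.23, 7.10, 3.05 and 6.03 CPM. B3 was the lowest library for both genes. LAMA5 lay 0.99 log2 units below the reference level, at -0.99 ± 0.31 (edgeR adjusted p = 0.0366), and this call was lost without B2, B3 or B4, with adjusted p of 0.0731, 0.0855 and 0.0952. Without the filter on low counts the reference level was 3.14 CPM. The fitted levels of lama2 and LAMA5 were then above it (log2 1.38 and 1.02). The epidermal chain gene lama3 (ENSDARG00000071462) had 4 counts in B1 and 0 in the other libraries.

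Both copies of LAMB1, the beta chain found in most laminins, were among the abundant members. The copy ENSDARG00000045524 had 290.4, 199.7, 173 and 153 CPM in B1, B2, B3 and B4, and the copy ENSDARG00000101209 had 118, 153, 47.6 and 63.4 CPM. The first copy was within 1.90-fold across libraries, while the second was higher in B1 and B2 than in B3 and B4. They lay 4.01 ± 0.24 and 2.92 ± 0.32 log2 units above the reference level by edgeR (adjusted p = 9.94e-07 and 4.42e-05). Reads of such copies are uncertain where the counting could split them.

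The beta chain gene lamb2l (ENSDARG00000033950) had 110.0, 19.5, 26.1 and 37.0 CPM. It passed as above the reference level, at 1.93 ± 0.43 log2 units (edgeR adjusted p = 0.00246). B1 was 2.97-fold above the next library, and the mean of 48.1 CPM was 27.5 CPM without B1. LAMB2 (ENSDARG00000002084), whose protein is a beta chain of synaptic and vascular basement membranes in mammals and whose gene adjoins lamb2l in the RefSeq annotation of GRCz12tu, had 8.53, 4.25, 0.642 and 2.40 CPM. It missed the threshold (log2 -1.68 ± 0.53, edgeR adjusted p = 0.0504), and passed as low without B1, by DESeq2 and in limma-voom (adjusted p = 0.0109, 0.00301 and 0.0156). Without the filter on low counts its fitted level was above the lower reference level of that setting (log2 0.33). Its mean of 3.96 CPM was 2.43 CPM without B1. The gene lamb4 (ENSDARG00000039133) lay below the reference level, with 0.674, 2.38, 1.03 and 2.40 CPM.

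Among the gamma chains, lamc3 (ENSDARG00000093572) had 167, 267, 151 and 307 CPM. In mammals its chain is known from a narrow set of tissues that includes brain. It was higher in B2 and B4 than in B1 and B3, and lay 4.14 ± 0.26 log2 units above the reference level by edgeR (adjusted p = 1.09e-06). The gene lamc1 (ENSDARG00000036279) encodes the gamma chain of most laminins and is needed for the zebrafish notochord. It had 5.63, 9.34, 6.20 and 6.21 CPM, all below the reference level. Its fitted level was -0.88 ± 0.24 (edgeR adjusted p = 0.0224), and the call was lost without B3 or B4 (adjusted p = 0.0747 and 0.0772). Without the filter on low counts its fitted level was above the lower reference level of that setting (log2 1.13). Of all laminin chain reads the alpha chains took 21.0%, 23.1%, 25.8% and 19.5% in B1, B2, B3 and B4, the beta chains 57.9%, 44.2%, 45.4% and 36.4%, and the gamma chains 21.1%, 32.7%, 28.8% and 44.1%. Beta chains thus had their highest share in B1 and gamma chains in B4.

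Both copies of NID1 were abundant. ENSDARG00000068710 had 90.7, 133, 55.5 and 79.96 CPM in B1, B2, B3 and B4, and ENSDARG00000103129 had 183, 43.2, 32.6 and 66.1 CPM. The first was highest in B2 and the second in B1, and B3 was the lowest library for both. They lay 2.83 ± 0.26 and 2.68 ± 0.43 log2 units above the reference level by edgeR (adjusted p = 1.89e-05 and 0.00035), and the mean of the second copy was 81.1 CPM with B1 and 47.3 CPM without it. NID2 (ENSDARG00000075707), the second nidogen, had 11.4, 7.85, 3.24 and 8.66 CPM and did not pass (log2 -0.70, edgeR adjusted p = 0.112). It passed as low without B1 (log2 -0.93, adjusted p = 0.0379). Without the filter on low counts its fitted level was above the lower reference level of that setting (log2 1.31). Its relative nid2b (ENSDARG00000009471) had 72, 0, 16 and 5 counts and was not tested.

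**Figure D1:**
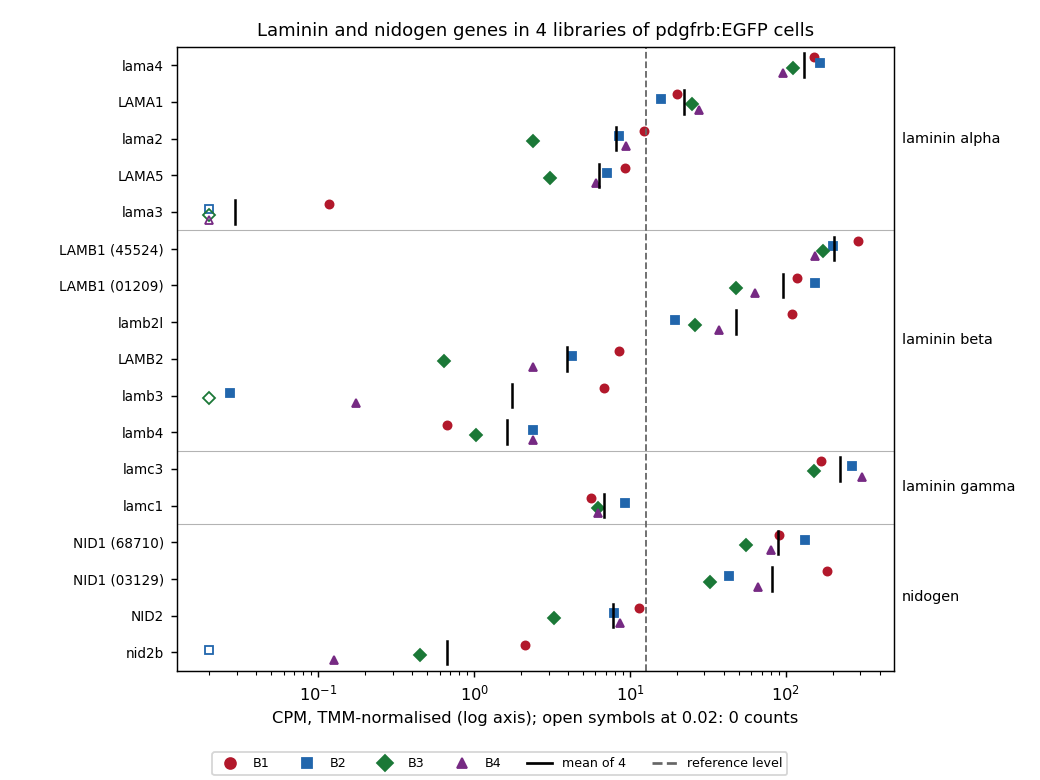
TMM-normalised CPM (log axis) of 17 of the 18 laminin and nidogen IDs in each library, with a black bar at the mean of the 4 libraries and a dashed line at the reference level of 12.6 CPM. Digits in brackets end the ID of a copy. lama4, both LAMB1 copies, lamb2l, lamc3 and both NID1 copies lie right of the line in every library, as does LAMA1, and B3 is the leftmost library in 8 of the 15 tested IDs.

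Laminin and nidogen genes were lowest in B3 more often than tested genes at large, though not all of them were. Of the 15 tested IDs 8 were lowest there, against 18.0% of all tested genes, and 0 of 15 were highest there, against 20.0% of all tested genes. Only 3 of the 15, lama2, LAMB2 and NID2, were at least 2-fold under the next library in B3, each at a mean under 10 CPM. The same 15 IDs also departed in B1, where 8 were highest, against 36.0% of all tested genes, and 2 lowest, against 43.7%. The 14 laminin IDs summed to 923, 858, 547 and 710.4 CPM in B1, B2, B3 and B4, and the 4 nidogen IDs to 287, 184, 91.8 and 155 CPM. B3 was the lowest library in both sums. By class the laminins of B3 and B4 summed to 141 and 139 CPM for alpha, 248 and 258 CPM for beta, and 158 and 313 CPM for gamma chains. The gap between B3 and B4 in the laminin sum thus lay mostly in lamc3, at 151 and 307 CPM. The genes lama4 and LAMB1 (ENSDARG00000045524) were lowest in B4 and LAMA1 in B2. B3 also had the highest sum of the fibroblast list, at 5479 CPM against 1044 to 1961 CPM in the other libraries, and of that list COL1A2, a fibrillar collagen gene picked after its values were seen, had 1572 CPM there against 136 to 356 CPM. The 3 type I collagen IDs of the list gave 4178 CPM of that sum, and without them it was 588, 1305, 1301 and 743 CPM in B1, B2, B3 and B4, no longer highest in B3. These values come from 1 library, and their part in the low laminin reads was not tested.

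**Figure D2:**
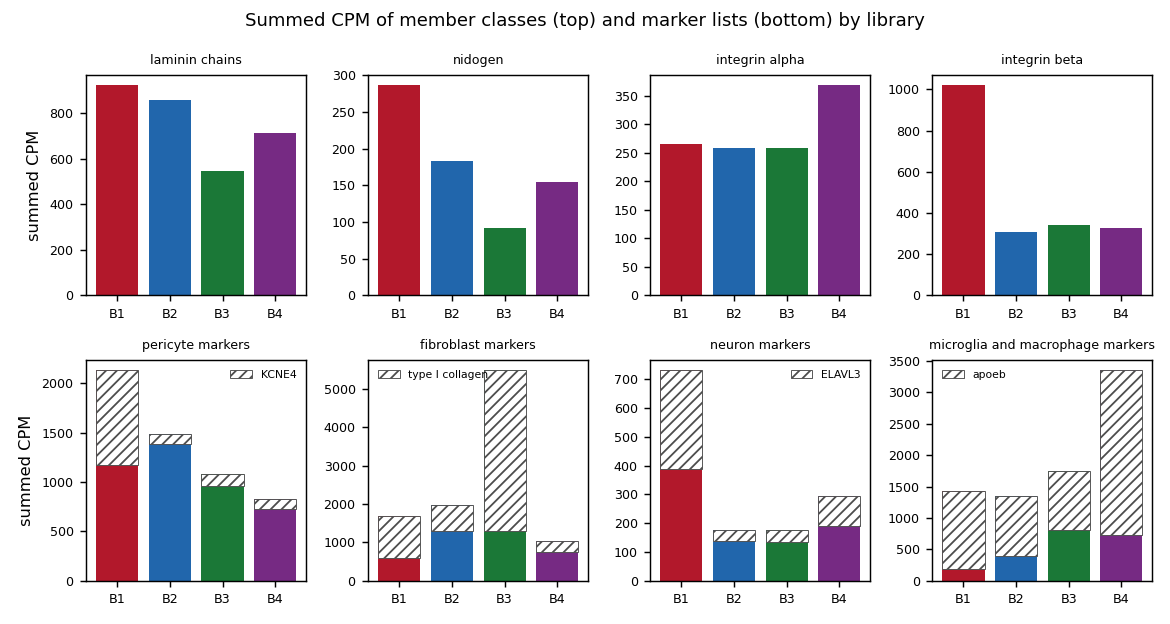
Summed CPM in each library of the laminin chains, nidogens, integrin alpha and integrin beta chains in the top row, and of 4 marker lists in the bottom row, each panel with its own axis from 0 and the hatched part of a marker bar showing the gene or genes named in it. Laminin and nidogen sums are lowest in B3, where the fibroblast sum is highest through its type I collagen genes, and the integrin beta sum of 1020.4 CPM in B1 is 308 to 341 CPM in the other libraries.

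The laminin beta chain gene lamb3 (ENSDARG00000059369) was found mostly in B1, with 231, 1, 0 and 7 counts in B1, B2, B3 and B4. In mammals the chain it encodes is part of the laminin of hemidesmosomes, the anchoring junctions of epithelia. ITGB4 (ENSDARG00000028507), which encodes the beta chain of the hemidesmosomal integrin, had 101, 20.8, 15.8 and 30.6 CPM. B1 was the highest library for both, and was 3.31-fold above the next library for ITGB4. ITGB4 lay above the reference level at 1.74 ± 0.46 log2 units with all libraries (edgeR adjusted p = 0.00565) and at 0.83 without B1 (adjusted p = 0.0057), where its mean was 22.4 CPM against 42.1 CPM with B1.

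ITGA6 (ENSDARG00000042282), 1 of the IDs for the alpha partner of ITGB4, had 3.25, 1.49, 0.391 and 0.475 CPM, and ITGA3 (ENSDARG00000012824), which encodes another laminin-binding alpha chain, had 4.86, 1.03, 0.838 and 2.60 CPM. Both were highest in B1 and lay below the reference level (edgeR adjusted p = 0.00826 and 0.0102). Without B1 their means were 0.785 and 1.49 CPM. Another ID of the ITGA6 name, itga6b, had more reads, at 17.6, 24.5, 25.6 and 41.4 CPM, and was lowest in B1. Keratin genes of epithelia were read beside them, from a list added after these values were seen. By highest library its 13 IDs numbered 5, 4, 2 and 2 in B1, B2, B3 and B4. Of all tested genes 36.0%, 24.8%, 20.0% and 19.2% peaked there, so these counts were near the general shares. Of it krt5 had 34.1, 7.96, 12.2 and 4.88 CPM and krt91 had 36.9, 13.4, 8.10 and 6.31 CPM, both highest in B1. Other keratin genes differed: krt4 (12.6, 26.2, 8.46 and 15.7 CPM) was highest in B2 and krt15 (17.2, 20.9, 6.56 and 23.0 CPM) in B4. The gene krt8 was lowest in B1, at 173 CPM against 271 to 345 CPM. The adhesion genes epcam (2.02, 29.1, 0.866 and 0 CPM) and cdh1 (1.35, 3.52, 0.112 and 0.025 CPM) were highest in B2. The keratin gene krt8 gave most of the reads of the 13 epithelial IDs, which summed to 297 CPM in B1, against 361 to 385 CPM in the other libraries. Without krt8 they summed to 124, 109, 39.9 and 54.9 CPM in B1, B2, B3 and B4, highest in B1. Of the 10 tested IDs 1, krt8 itself, lay above the reference level, against 36.8% of all tested genes. The part of epithelial cells in the B1 values was not tested.

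Of all 43 tested members 10 were at least 2-fold above the next library in B1, which is 23.3%, against 15.1% of all tested genes. By highest library 17, 13, 6 and 7 of the 43 peaked in B1, B2, B3 and B4, against 36.0%, 24.8%, 20.0% and 19.2% of all tested genes. By lowest library the members numbered 11, 5, 13 and 14, against 43.7%, 22.8%, 18.0% and 15.5% of all tested genes. As shares the members came to 25.6%, 11.6%, 30.2% and 32.6%, above the tested genes at large in B3 and B4 and below them in B1 and B2. Of the 25 tested integrin chains 11 were lowest in B4. The neuron list was also highest in B1, at 731 CPM against 176 to 293 CPM, and 10 of its 12 IDs peaked there. The endothelial list was highest there too, at 492 CPM against 223 to 312 CPM, and 3 of its 12 IDs peaked in B1. CLDN5 (ENSDARG00000043716), picked after its values were seen, gave 240 CPM of that B1 sum. The lymphatic endothelium and muLEC list summed to 352 CPM in B1 against 195 to 272 CPM, with 4 of 7 IDs highest there. The radial glia, erythrocyte, epithelial, and neutrophil, lymphocyte and thrombocyte lists had their lowest sums in B1. The pericyte list summed to 2131 CPM in B1 against 823 to 1489 CPM, but KCNE4 gave 955 CPM of it. Without KCNE4 it was highest in B2, at 1176, 1382, 963 and 725 CPM in B1, B2, B3 and B4, and 6 of its 12 IDs peaked in B1 while 5 were lowest there. The part of neurons, pericytes or other cells in the members' B1 values was not tested. Of the 23 members at a mean of 10 CPM or more, 0 had an edgeR biological coefficient of variation of 1 or more, against 0.889% of all tested genes of that level, also without each library in turn and with DESeq2 size factors. At so small a share, 0 of 23 says little about the members. Their median coefficient was 0.452, against 0.447 for all tested genes of that level.

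**Figure D3:**
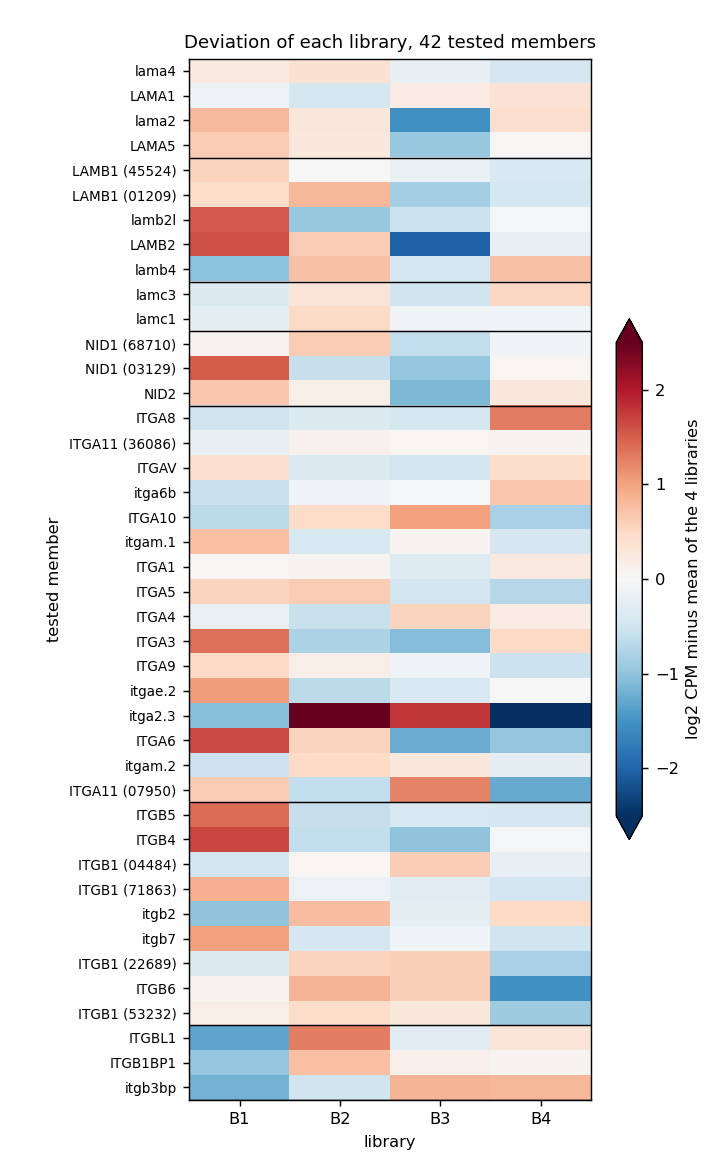
Log2 CPM of 42 of the 43 tested members in each library minus the member's mean over the 4 libraries, coloured from blue (lower) to red (higher), with lines between the classes and values past the scale drawn at its ends. B1 is red for lamb2l, the second NID1 copy, ITGB5 and ITGB4, B3 is blue for LAMB2, lama2 and NID2, and B4 is red for ITGA8.

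Integrin alpha chains that bind laminin were read next to the laminins. The gene itga6b (ENSDARG00000069946) had 17.6, 24.5, 25.6 and 41.4 CPM in B1, B2, B3 and B4. B4 was the highest library and B1 the lowest, and all 4 were above the reference level. The difference was 1.11 ± 0.26 log2 units (edgeR adjusted p = 0.00457), and was lost without B4 (0.75, adjusted p = 0.0604). The other IDs of this class, ITGA3, ITGA6, itga3a and itga6l, each had a mean of at most 2.33 CPM. The 5 laminin-binding IDs took 10.007%, 11.0%, 10.4% and 12.4% of integrin alpha chain reads in B1, B2, B3 and B4, a share of 10.9 ± 1.02% (SD, n = 4).

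Collagen-binding alpha chains were represented by ITGA11, ITGA10 and ITGA1. ITGA11 (ENSDARG00000036086), whose chain binds fibrillar collagen and is known from mammalian fibroblasts, had 38.6, 48.1, 46.5 and 46.7 CPM. These values lay within 1.24-fold of each other and 1.83 ± 0.19 log2 units above the reference level by edgeR (adjusted p = 7.81e-05). ITGA10 (ENSDARG00000002507), a collagen receptor gene of cartilage, had 12.4, 27.6, 40.8 and 11.3 CPM. It was higher in B2 and B3 than in B1 and B4, and passed by a small margin (log2 0.87 ± 0.36, edgeR adjusted p = 0.0467). It did not pass in limma-voom or without B2 or B3, where the adjusted p was 0.0811, 0.191 and 0.432.

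ITGA1 (ENSDARG00000074316), a collagen receptor gene of smooth muscle and other mesenchymal cells, had 19.0, 19.4, 14.8 and 22.0 CPM. It passed at 0.57 ± 0.20 log2 units (edgeR adjusted p = 0.0326) and did not without B2, B3 or B4, with adjusted p of 0.171, 0.114 and 0.265. The second ITGA11 copy (ENSDARG00000007950) lay below the reference level at 1.17, 0.460, 1.82 and 0.275 CPM. ITGA2, itga2.1 and itga2.3 had means of 0.14, 0.275 and 1.79 CPM, and itga2.3 ranged from 173 counts in B2 to 0 in B4.

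Of the alpha chains that bind RGD proteins, ITGA8 (ENSDARG00000078717) had 45.1, 50.1, 46.7 and 154 CPM. It encodes a receptor chain for nephronectin and fibronectin found on smooth muscle and other mesenchymal cells. B4 was 3.07-fold above the next library, and the mean of 74.0 CPM was 47.3 CPM without B4. It lay 2.55 ± 0.36 log2 units above the reference level by edgeR (adjusted p = 0.000217). B4 had the highest sum of the microglia and macrophage list, at 3347 CPM against 1345 to 1748 CPM. The gene apoeb gave 2620 CPM of it, and without apoeb the list summed to 185, 402, 814 and 727 CPM in B1, B2, B3 and B4, highest in B3. The smooth muscle sum was 219 CPM in B4, against 223 to 412 CPM in the other libraries. The part of these cells in the ITGA8 value was not tested.

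ITGAV (ENSDARG00000006314), whose chain pairs with several beta chains and binds vitronectin and latent TGF-beta, had 45.003, 26.6, 24.7 and 46.7 CPM. B1 and B4 were the higher pair of libraries, and its level was 1.502 ± 0.25 log2 units above the reference level by edgeR (adjusted p = 0.000909). ITGA5 (ENSDARG00000006353), the fibronectin receptor gene, had 23.2, 24.8, 11.4 and 9.61 CPM, higher in B1 and B2. It did not pass (log2 0.45, edgeR adjusted p = 0.196). The thrombocyte gene itga2b had 9, 2, 9 and 12 counts, a mean of 0.217 CPM.

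ITGA4 (ENSDARG00000103056), whose chain binds VCAM1 and fibronectin, had 9.41, 7.26, 15.8 and 12.1 CPM and lay on neither side of the reference level (log2 -0.18, edgeR adjusted p = 0.55). Its relative ITGA9 (ENSDARG00000032435), a receptor gene for tenascin, lay below it with a mean of 2.33 ± 0.706 CPM (SD, n = 4).

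Leukocyte integrins were represented mainly by itgam.1 (ENSDARG00000002956), an ID for the alpha chain of a myeloid complement receptor, at 34.3, 15.2, 21.0 and 15.1 CPM. B1 was the highest library. The level passed at 0.76 ± 0.27 log2 units (edgeR adjusted p = 0.0296), but not without B2, B3 or B4, with adjusted p of 0.0592, 0.129 and 0.0697. Its usual partner gene itgb2 (ENSDARG00000016939) had 3.69, 12.8, 6.37 and 10.6 CPM, lowest in B1, and did not pass. The pan-leukocyte gene ptprc, also picked after its values were seen, had 34.4, 2.57, 3.52 and 5.78 CPM, also highest in B1. Of its list of 14 microglia and macrophage IDs 5 peaked in B1 and 5 were lowest there, against 36.0% and 43.7% of all tested genes. Without apoeb that list summed to 185, 402, 814 and 727 CPM in B1, B2, B3 and B4, lowest in B1. The part of these cells in the itgam.1 value was not tested. The remaining leukocyte chains itgam.2, itgae.1, itgae.2 and itgb7 had means of 0.796 to 3.05 CPM. Of these itgam.2, itgae.2 and itgb7 lay below the reference level and itgae.1 was not tested.

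By binding class the shares of integrin alpha reads had an SD between libraries of 1.02 percentage points for the laminin-binding chains, the smallest. It was largest for the chains that bind RGD proteins, at 10.5. An SD in points depends on the size of the share, which had a mean of 42.8% for the RGD class. Relative to its mean of 9.30%, the leukocyte class spread more, with an SD of 4.40. The RGD class took 42.8%, 39.2%, 32.02% and 57.1% in B1, B2, B3 and B4, highest in B4 where ITGA8 was high. Collagen-binding chains took 27.1%, 38.8%, 41.2% and 21.8%, higher in B2 and B3. Leukocyte chains took 15.3% in B1 and 5.11% to 9.45% in the other libraries. The pair of ITGA4 and ITGA9 took 3.69% to 6.87%. These are shares of reads and carry no correction for transcript length.

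The beta chain gene with the most reads in each library was ITGB5 (ENSDARG00000012942), at 849, 216, 244 and 242 CPM. Its chain pairs with that of ITGAV in a receptor for vitronectin and for MFGE8. B2, B3 and B4 lay close together and B1 was 3.47-fold above the next library. It lay 4.94 ± 0.40 log2 units above the reference level with B1 (edgeR adjusted p = 1.73e-06) and 4.22 without B1 (adjusted p = 3.04e-08), with a mean of 388 CPM with B1 and 234 CPM without it. ITGB3, which encodes the other vitronectin receptor beta chain, had 2 IDs, with 26, 30, 35 and 11 counts for ENSDARG00000045070 and 5, 0, 0 and 0 counts for ENSDARG00000056767. ITGB8, a TGF-beta activating chain gene of mammalian brain glia, had 14, 2, 2 and 0 counts.

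ITGB1 is the common partner of the laminin-binding and collagen-binding alpha chains, and 4 IDs bear its symbol. ENSDARG00000104484 had 23.7, 33.5, 49.7 and 28.4 CPM in B1, B2, B3 and B4, highest in B3. ENSDARG00000071863 had 31.0, 15.2, 13.97 and 12.04 CPM, highest in B1. The first lay 1.42 ± 0.24 log2 units above the reference level by edgeR (adjusted p = 0.00112), and the second did not pass (0.51, adjusted p = 0.128). ENSDARG00000022689 and ENSDARG00000053232 lay below it, with means of 2.44 ± 1.11 and 1.24 ± 0.443 CPM (SD, n = 4). The 4 IDs summed to 57.8, 53.6, 68.5 and 42.3 CPM, so the sum varied less between libraries than the copy ENSDARG00000071863 did. Reads could have been split between these copies.

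ITGB6 (ENSDARG00000002494), an epithelial chain gene in mammals, lay below the reference level with 1.38, 2.41, 2.01 and 0.425 CPM. In all, 3 of 9 tested beta chain IDs lay above and 4 below, and of 16 tested alpha chain IDs 7 lay above and 6 below, where 36.8% and 33.2% of all tested genes did so.

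Of the IDs that share only the name, ITGBL1 (ENSDARG00000040985), which encodes a secreted protein with integrin-like repeats, had 19.9, 119, 40.4 and 62.2 CPM. ITGB1BP1 (ENSDARG00000007169), whose product binds the beta chain tail and restrains its activation, had 14.4, 47.2, 30.8 and 29.6 CPM. Both were lowest in B1 and highest in B2, and both lay above the reference level, at 2.26 ± 0.40 and 1.27 ± 0.30 log2 units (edgeR adjusted p = 0.000806 and 0.00429). The centromere protein gene itgb3bp had a mean of 1.66 CPM and lay below it.

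**Figure D4:**
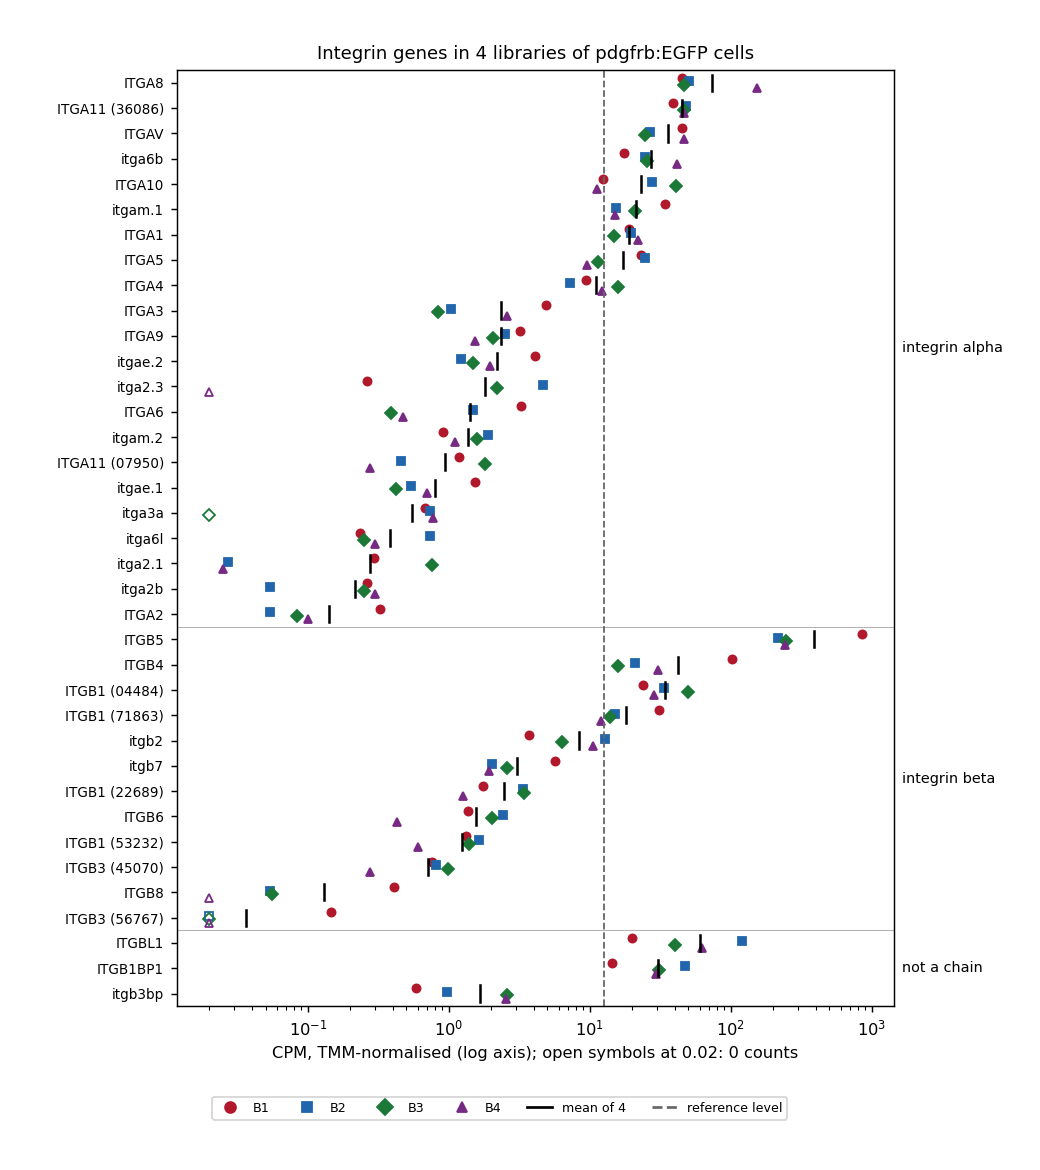
TMM-normalised CPM (log axis) of the 37 integrin-named IDs in each library, drawn as for the laminins, with open symbols for 0 counts and the last digits of the ID in brackets for copies. ITGB5 lies at 849 CPM in B1 and 216 to 244 CPM in the other libraries, ITGA8 at 154 CPM in B4 and 45.1 to 50.1 CPM in the others, and the ITGA11 copy ENSDARG00000036086 within 1.24-fold throughout.

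Other genes of the basement membrane and of integrin signalling were read as lists. Of 19 tested IDs of other basement membrane components 6 (31.6%) lay above and 7 (36.8%) below the reference level, near the 36.8% above and 33.2% below of all tested genes, with a median log2 difference of 0.03. Those with the most reads were SPARC, a collagen-binding matricellular protein gene, at 113, 610.4, 585 and 379 CPM, and SMOC2, of the same protein family, at 154, 149, 167 and 132 CPM. AGRN, which encodes the proteoglycan agrin that joins laminin to dystroglycan, had 86.2, 44.0, 54.4 and 47.2 CPM, and col18a1a, a basement membrane collagen gene, had 34.6, 35.7, 32.2 and 68.8 CPM. SPARC was lowest in B1, AGRN highest there, and SMOC2 nearly level.

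Of the same list, 3 further core components were picked after their values were seen. COL4A1, a chain of the collagen IV network, had 26.8, 32.7, 29.8 and 22.3 CPM and lay above the reference level. COL4A2, its partner chain, at 13.1 ± 6.06 CPM, and HSPG2, the perlecan gene, at 14.2 ± 2.19 CPM (SD, n = 4), did not pass.

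Among other laminin receptors and their linkers 5 of 14 tested IDs (35.7%) lay above and 5 below, again near the shares of all tested genes, with a median of 0.30. DAG1, which encodes dystroglycan, the main laminin receptor that is not an integrin, had 219, 192, 194 and 204 CPM. It was nearly the same in all 4 libraries, at 202 ± 12.6 CPM (SD, n = 4) and 4.00 ± 0.20 log2 units above the reference level by edgeR (adjusted p = 4.34e-07). SGCE, a sarcoglycan gene, at 159 ± 66.6 CPM, SNTB1, a syntrophin gene, at 37.3 ± 6.27 CPM, and dmd, the dystrophin gene, at 34.7 ± 3.50 CPM (SD, n = 4), were above it too.

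Of the intracellular activation and adhesion linkers 12 of 29 tested IDs (41.4%) lay above, against 36.8% of all tested genes, and 9 (31.0%) below, against 33.2%, with a median of 0.61. The filamin gene flna had 283, 103, 81.4 and 91.97 CPM, and its mean of 140 CPM was 92.2 CPM without B1. TNS1, a tensin gene, stood at 115 ± 28.0 CPM, ILK, the integrin-linked kinase gene, at 76.3 ± 12.04 CPM, and rap1b, a GTPase gene of integrin activation, at 74.2 ± 29.0 CPM (SD, n = 4).

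Ligands of the RGD, ITGA4 and ITGA9 class integrins had 10 of 25 tested IDs above, against 36.8% of all tested genes, and 5 below, against 33.2%, with a median of 0.63. Most reads came from mfge8a, which encodes a secreted RGD protein that bridges phosphatidylserine to the receptors of ITGAV, at 1227, 2019, 1737 and 2251 CPM. It lay 7.16 ± 0.25 log2 units above the reference level by edgeR (adjusted p = 6.02e-09). TNC (ENSDARG00000021948), a tenascin gene, stood at 226 ± 84.7 CPM and vcam1b, a cell adhesion ligand gene, at 151 ± 23.4 CPM (SD, n = 4). The osteopontin gene spp1 had 3.22, 75.9, 258 and 0.225 CPM, so its level rested on B2 and B3. It passed with all libraries (log2 2.74 ± 1.14, edgeR adjusted p = 0.0191). The adjusted p was 0.052 without B2, 0.429 without B3, 0.0599 in DESeq2 and 0.966 in limma-voom, where the sign was negative (log2 -0.08).

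**Figure D5:**
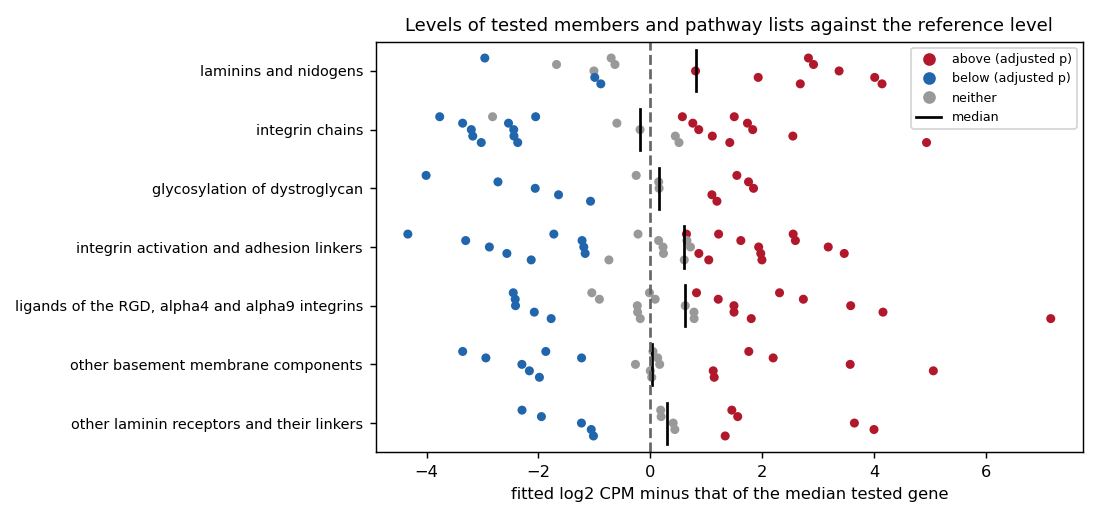
Fitted log2 level of each tested ID minus that of the median tested gene, for the laminins and nidogens, the integrin chains and 5 lists of related genes, coloured by the edgeR call, with a black bar at each median. The median lies at 0.81 for laminins and nidogens and at -0.18 for integrin chains, and ITGB5 and mfge8a are the rightmost points of their rows.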

How the data were processed

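Per the labels' protocols, RNA of sorted cells was amplified and made into Illumina libraries. The submitters' processing notes name bcl2fastq, R 3.2.2 and GRCz10; for the aligner, counter and annotation, not given in the sources used here, nothing can be stated. The deposited values are raw whole-number counts for each Ensembl ID, as the authors left them, 1 column per library, and these were the only values used. Their YuGene scores rank each library's genes by the same counts and were not used. The 4 columns match no sample number and were treated as unnumbered libraries of the 1 group, with 0 columns left out. The labels give 6 brains for every pool and, apart from the sample number, nothing that separates the samples. The p-values set a gene's distance from the reference level against the spread between pools, moderated over all tested genes. That spread may be technical. The amplified reads carry no molecular identifiers and are not independent.

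A symbol was found for 26269 of 32105 IDs. The members and lists were chosen with earlier results of these data known, and the epithelial list of 13 genes, and the sums of lists without their leading genes, were added after values were seen. Of 254 list entries 16 found no ID, and 59 were matched to a capital symbol without their last letter. Every member of mean CPM of at least 10 is named, of each class up to 4 members below that, and of each list up to 4 of the highest, except for some genes that are not reported here.

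Counts were scaled by TMM in edgeR 4.0.16 (R 4.3.3). A single mean per gene was fitted by quasi-likelihood over the 17283 genes that reached 1 CPM in 2 or more libraries, and its distance from the median fitted level was tested two-sided from the drop in deviance. On simulated counts with 16851 genes in that step, genes set to 4 times the reference level were called in 50 of 50 cases and those set to 2 times in 37 of 50. Genes set low passed in 22 of 50 cases for 0.5 times and 48 of 50 for 0.25 times, and 2 of 100 genes left at the reference level passed. The simulated libraries were alike, with none apart over many genes as B1 was. The reference level was given to that test and not estimated. These rates may therefore not carry over to the real counts. The planned correction for coding length, and the ordering of chains that needs it, could not be made because no lengths were at hand, so the uncorrected test is reported. Alternatives were DESeq2 1.42.0, limma-voom (limma 3.58.1), DESeq2 size factors, no filter on low counts, and leaving out each library.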

Additional observations from a re-analysis of the deposited data

Results flagged for a closer look

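In 7 of 54 members examined, 1 library lay far from the other 3 on the log2 CPM scale (prior count of 2), past the critical value of Dixon's ratio of its gap to the range. Among the tested members 3 of 42 passed, which is 7.14%, against 12.4% of all tested genes and about 5% of groups by chance. ITGA8 had a ratio of 0.9147 for its high value in B4 (154 CPM against 45.1 to 50.1 CPM). ITGB5 had a ratio of 0.9095 for its high value in B1 (849 CPM against 216 to 244 CPM). ITGA11 (ENSDARG00000036086) had a ratio of 0.8491 for its low value in B1, within a range of 38.6 to 48.1 CPM. The other 4 were too low to be tested. The gene lama3, with 4 counts in B1 and 0 elsewhere, and ITGB3 (ENSDARG00000056767), with 5 counts in B1 and 0 elsewhere, had ratios of 1. The gene itga3a had a ratio of 0.9519 for a count of 0 in B3, against 0.674 to 0.776 CPM in the other libraries. The gene itga2b had a ratio of 0.8747 for 2 counts in B2, against 9 to 12 in the other libraries.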

How the results depend on the processing

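The count of members above the reference level was 20, and 19 to 28 with DESeq2 size factors, DESeq2, limma-voom or no filter, and 16 to 20 with each library left out. Those below were 14, and 13 to 17 and 10 to 14. Without the filter the reference level fell to 3.14 CPM, because 28308 genes were then tested, and members between these levels changed side: ITGA4 (log2 1.83), itgb2 (1.41), lama2 (1.38), NID2 (1.31), lamc1 (1.13), LAMA5 (1.02) and LAMB2 (0.33). Of the 14 members below only 3 then kept that call. ITGA3, ITGA9, itgae.2, ITGA6, itgb7, ITGB1 (ENSDARG00000022689), ITGB6, itgb3bp and lamb4 kept their sign but lost it, besides lamc1 and LAMA5. The counts above and below then became 12 and 4 for other basement membrane components, 12 and 1 for laminin receptors, 20 and 3 for integrin ligands and 9 and 1 for dystroglycan glycosylation, and 22 linkers lay above. With each library left out, the glycosylation genes below ran from 2 to 5, with 2 without B3. No paired analysis was possible because there is only 1 group. Lengths were not available, and at 4 libraries levels near the reference level carried calls that single libraries decided.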

Other observations

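Dystroglycan binds laminin through a sugar chain built by a set of glycosyltransferases. Of 13 tested genes of dystroglycan glycosylation 5 (38.5%) lay above and 5 below the reference level by edgeR's quasi-likelihood test. This was near the 36.8% and 33.2% of all tested genes, and the median log2 difference was 0.15. Of these, POMT1 and POMGNT1 had 24.7, 38.2, 41.0 and 44.0 CPM and 21.2, 27.8, 31.8 and 34.7 CPM in B1, B2, B3 and B4. Both were lowest in B1, and they lay 1.55 ± 0.22 and 1.19 ± 0.21 log2 units above the reference level (adjusted p = 0.000466 and 0.00155).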
